A study of Mus musculus with 8 samples.

Results

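The LIF, JAK and STAT3 pathway was followed through 10 genes of the 22878 gene rows in the expression files. They are Lif, Lifr, Il6st, Jak1, Stat3, Socs3, Pim1, Gbx2, Junb and Bcl3, chosen by name, and each had 1 row with an estimate marked as successful in all 8 libraries. Leukemia inhibitory factor (LIF) is the cytokine that keeps mouse pluripotent cells in self-renewal in serum culture. It binds a receptor made of LIFR and gp130, the product of Il6st. JAK kinases bound to the receptor then phosphorylate STAT3, which enters the nucleus and activates target genes. One of these, Socs3, encodes an inhibitor that acts back on the receptor and its kinases.

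RNA sequencing compared the mouse embryonic stem cell (ESC) line R1 with 4 secondary induced pluripotent stem cell (iPSC) lines. Lines 16-6 (hematopoietic cells) and 32 (adipocyte progenitors) are of mesodermal origin, S8 (epidermal cells) is ectodermal and T2 (stomach lining) endodermal. The donors were adult mice made entirely from an earlier iPSC line with doxycycline-inducible reprogramming factors, so all iPSC lines carry these transgenes and R1 does not. There were 2 libraries each for R1, 16-6 and 32, and 1 each for S8 and T2. The study's methods state that every line was cultured in serum medium with added LIF on mitotically inactivated mouse embryonic fibroblast feeders, so no group lacked LIF. The labels name the tissue as embryo, whereas the methods describe cultured cell pellets.

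Levels are in FPKM, a fragment count divided by transcript length and library size, so levels of different genes can be compared. All deposited values were divided by 1 common constant, which leaves ratios unchanged. The confidence limits imply 15.5 to 16.7 fragments per library in units of 1000000. They do not show the several times larger read numbers that the study's supplement gives for S8 and T2, for a reason not tested. Differences are given as the first line minus the second on the log2(FPKM + 1) scale, which understates changes of low genes. A gene was called when the limma adjusted p was below 0.05 and the absolute difference was at least 1. All 8 markers of pluripotent cells reached an FPKM of 1 in every library, with sums from 1857.2 to 3509.1, highest in S8. Zfp42 differed from R1 by -1.92 in 16-6, -1.02 in line 32, -2.18 in S8 and -2.53 in T2. Esrrb differed by -1.04, -0.03, -1.56 and -1.73 in the same order. Only S8 had a sum above R1, so there Zfp42, Esrrb and Nanog, at -1.11, went against the sum. Utf1, at 1.46 in S8, went with it. The 8 fibroblast markers summed to 854.3 and 887.2 in R1, 1733.8 and 1720.1 in 16-6, 70.2 and 67.1 in line 32, 413.0 in S8 and 588.9 in T2, and none was at 0. In bulk samples, fewer cells of a type and less RNA per cell cannot be told apart.

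The 10 genes differed between the lines most at the ligand and least at the transcription factor. The highest line mean exceeded the lowest by 12.5-fold for Lif, 3.05-fold for Jak1, 3.0-fold for Il6st, 2.86-fold for Lifr, 2.25-fold for Gbx2, 2.15-fold for Junb, 2.09-fold for Pim1, 1.97-fold for Socs3, 1.77-fold for Bcl3 and 1.58-fold for Stat3. Over the 5 lines, 7 of the 10 genes passed the moderated F test with at least a 2-fold range, against 34.5% of the 13693 genes tested. Socs3, Bcl3 and Stat3 passed the adjusted p but not the 2-fold minimum, so that with no minimum all 10 passed, against 88.4% of genes tested. In the ordered line means, 18 of 40 neighbouring pairs differed at an adjusted p below 0.05, against 30.8% over all genes tested. Of the 18, 3 compare the single libraries of S8 and T2 (Il6st, Jak1 and Socs3) and rest on the spread of the other lines, which leaves 15.

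**Figure D1:**
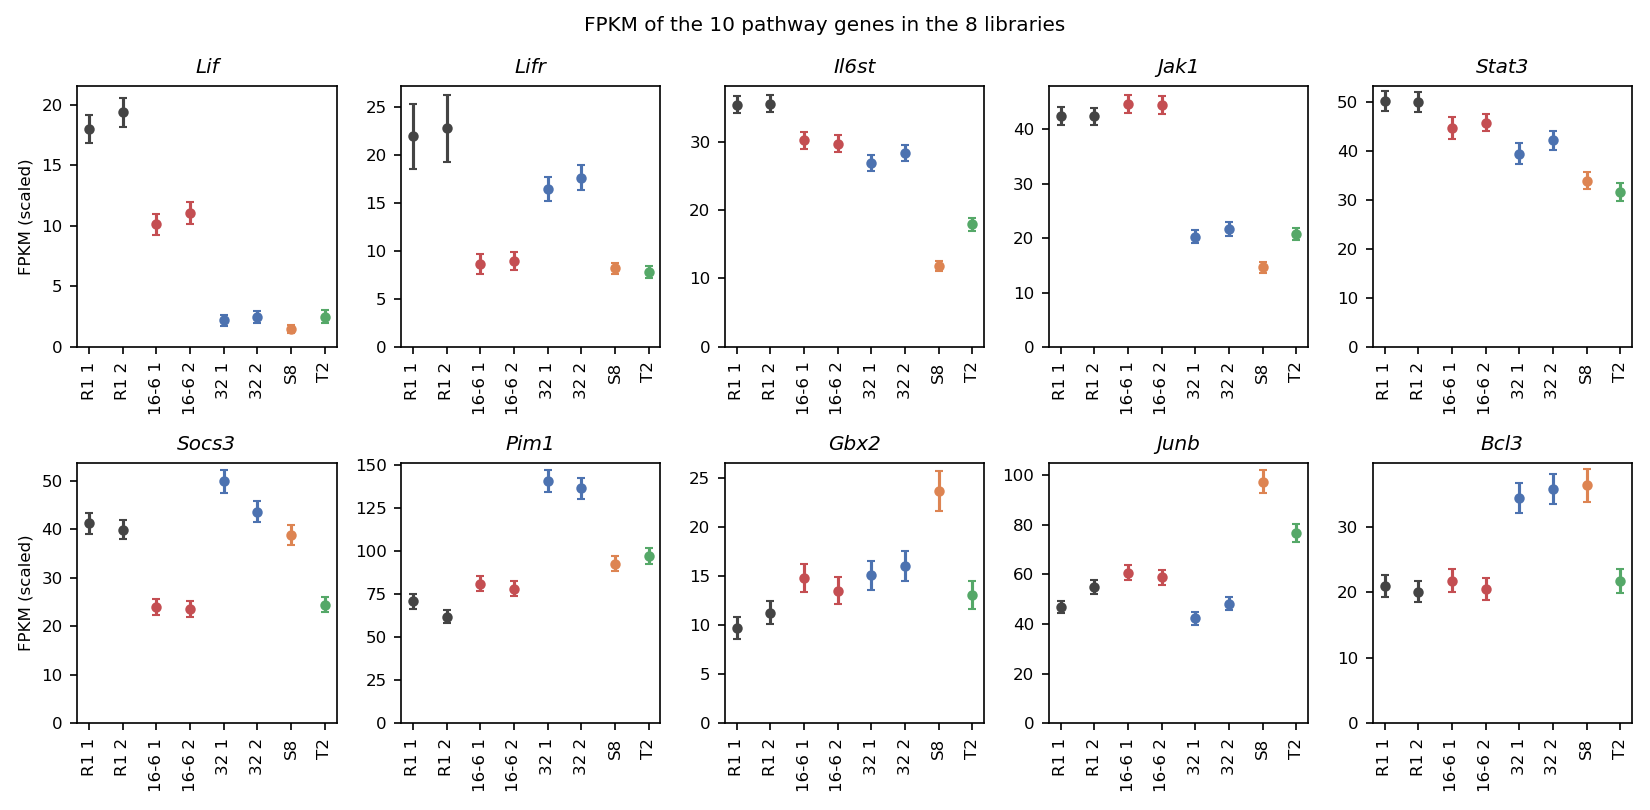
FPKM (vertical axis, from 0) of each gene in each of the 8 libraries (horizontal axis), with 1 panel per gene. Bars are the confidence limits deposited by the authors. Lif is near 18.0 and 19.4 in R1 and at most 2.5 in line 32, S8 and T2, whereas Pim1 is highest in line 32, at 141 and 136.

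Lif, the cytokine gene itself (chr11:4157571-4172517, mm9), was highest in the ESC line. It stood at 18.0 and 19.4 FPKM in R1, 10.1 and 11.04 in 16-6, 2.19 and 2.49 in line 32, 1.498 in S8 and 2.498 in T2. The libraries of R1 did not overlap with those of any iPSC line, and 16-6 lay between R1 and the other lines. Lif fell by 2.56 ± 0.08 (SE) in line 32, 2.98 ± 0.10 in S8 and 2.49 ± 0.10 in T2 against R1 (adjusted p = 3.6e-05, 7.0e-05 and 1.7e-04). Against R1, 16-6 differed by -0.76 ± 0.08, short of the 2-fold minimum (adjusted p = 0.0014). T2 and line 32, neighbours in the order, differed by 0.07 (adjusted p = 0.60). The lowest values rest on 74 to 110 implied fragments. Transcript levels do not measure the LIF added to the medium.

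Lifr, the LIF-binding receptor chain (chr15:7079572-7147489), was also highest in R1. It measured 22.0 and 22.8 FPKM in R1, 16.5 and 17.6 in line 32, 8.64 and 8.97 in 16-6, 8.20 in S8 and 7.82 in T2. The libraries fell into a higher set, R1 and line 32, and a lower set, 16-6, S8 and T2. Lifr fell by 1.25 ± 0.05 in 16-6, 1.34 ± 0.07 in S8 and 1.41 ± 0.07 in T2 (adjusted p = 1.6e-04, 1.3e-04 and 2.3e-04). In line 32 the difference was -0.37 ± 0.05 (adjusted p = 0.0034), below the fold minimum. Neighbours among the 3 lower lines did not pass the test (adjusted p = 0.28 and 0.57). Lifr has 2 annotated start sites, and its deposited limits in R1, equal to 171 and 172 implied fragments against 858 in S8 at a lower level, do not reflect counting alone.

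Il6st, which encodes gp130, the signalling chain shared by receptors of the IL-6 family (chr13:113254278-113297068), was lowest in the ectodermal line. Its levels were 35.4 and 35.6 FPKM in R1, 30.2 and 29.7 in 16-6, 26.9 and 28.3 in line 32, 17.9 in T2 and 11.8 in S8. All iPSC libraries were below R1, with 16-6 and line 32 close together. Il6st fell by 1.51 ± 0.05 in S8 (adjusted p = 7.3e-05). The differences were -0.95 ± 0.05 in T2, -0.35 ± 0.04 in line 32 and -0.24 ± 0.04 in 16-6, none of them 2-fold. With each library scaled to its upper quartile, the T2 difference came to -1.01 and passed both thresholds.

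Jak1, the receptor-bound tyrosine kinase (chr4:100824579-100937887), divided the lines in another way. It was at 42.5 and 42.4 FPKM in R1 and 44.7 and 44.5 in 16-6, but at 20.3 and 21.7 in line 32, 20.8 in T2 and 14.6 in S8. No library of the higher pair of lines overlapped with the other 4 libraries. Jak1 fell by 1.47 ± 0.05 in S8 against R1 (adjusted p = 8.5e-05) and was higher in 16-6 than in line 32 by 1.05 ± 0.04 (adjusted p = 6.5e-05). Line 32 and T2 lay at the fold threshold, at -0.98 ± 0.04 and -0.9955 ± 0.05, with adjusted p = 1.0e-04 and 3.0e-04. They fell just short of the fold minimum on the log2(FPKM + 1) scale, although the FPKM themselves were slightly past 2-fold. With a pseudocount of 0.1 these differences were -1.01 and -1.03 and both were called. The difference of 16-6 from R1, 0.07 ± 0.04, did not pass (adjusted p = 0.24). Jak1 overlaps Raver2 and a U6 small nuclear RNA gene on the other strand, and the pseudogene Gm12785 on its own strand. Reads of Jak1 and Raver2 could be mixed if counting ignored strand, and those of Gm12785 with either way of counting.

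Stat3, the transcription factor activated by the receptor (chr11:100748124-100800825), had the narrowest range of the 10 genes. Its FPKM were 50.1 and 49.9 in R1, 44.6 and 45.8 in 16-6, 39.4 and 42.1 in line 32, 33.8 in S8 and 31.6 in T2. Every iPSC library was below both R1 libraries, and no difference reached 2-fold. The differences from R1 were -0.14 ± 0.04 in 16-6, -0.29 ± 0.04 in line 32, -0.55 ± 0.06 in S8 and -0.65 ± 0.06 in T2 (adjusted p = 0.045, 0.0040, 7.7e-04 and 8.3e-04). The difference of T2 from S8, -0.10, did not pass the test (adjusted p = 0.28). These transcript levels do not measure phosphorylated STAT3.

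Socs3, the feedback inhibitor (chr11:117827401-117830680), was the only 1 of the 10 genes with a STAT-type motif within 500 bases of its start as given in the files. The motif searched was TTCNNNGAA, which reads the same on both strands, in the mm9 genome sequence. It occurred in 23.5% of the 21886 genes searched, and the absence of these letters elsewhere says nothing about binding. The Socs3 sites are printed as the gene's own strand, the minus strand, with the motif in capitals and 10 bases on each side. The downstream site lies at chr11:117830543-117830571, its motif starting 119 bases after the start, and the upstream site at chr11:117830816-117830844, its motif starting 154 bases before it.
Socs3 downstream site: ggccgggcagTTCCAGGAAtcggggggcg
Socs3 upstream site: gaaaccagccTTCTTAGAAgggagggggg

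Socs3 was measured at 41.2 and 39.9 FPKM in R1, 49.8 and 43.6 in line 32, 38.8 in S8, 24.5 in T2 and 23.99 and 23.5 in 16-6. Line 32 was highest and T2 and 16-6 were lowest, without overlap between these and the other lines. No Socs3 difference from R1 was called. The values were -0.75 ± 0.07 in 16-6, -0.71 ± 0.09 in T2, -0.06 ± 0.09 in S8 and 0.20 ± 0.07 in line 32 (adjusted p = 9.8e-04, 0.0021, 0.55 and 0.057). Between 16-6 and line 32 the difference was -0.94 ± 0.07 (adjusted p = 3.3e-04), and without the second library of line 32 it was -1.04 and called. In S8, where Il6st and Jak1 were lowest, Socs3 differed from R1 by less than its error.

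Pim1, a serine/threonine kinase gene induced by STAT3 (chr17:29627990-29632404), had the highest level of the 10 genes in every library except S8, where Junb was higher. It read 70.8 and 61.9 FPKM in R1, 81.0 and 78.1 in 16-6, 92.7 in S8, 97.0 in T2 and 141 and 136 in line 32. All iPSC libraries were above both R1 libraries. Pim1 rose by 1.05 ± 0.07 in line 32 (adjusted p = 3.0e-04), but the difference was 0.87 after quantile normalization, 0.96 with upper quartile scaling and 0.96 without the second R1 library, each below the fold minimum. The differences in 16-6, S8 and T2 were 0.26 ± 0.07, 0.48 ± 0.09 and 0.54 ± 0.09 (adjusted p = 0.028, 0.0056 and 0.0049). A long noncoding RNA gene, Gm16912, overlaps Pim1 on the other strand.

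Gbx2, a homeobox transcription factor gene (chr1:91824537-91827751), was lowest in R1 and highest in S8. Its FPKM were 9.72 and 11.3 in R1, 14.8 and 13.5 in 16-6, 15.1 and 16.0 in line 32, 13.1 in T2 and 23.7 in S8. The iPSC libraries were all above R1, and S8 lay apart from the others. Gbx2 rose by 1.10 ± 0.11 in S8 (adjusted p = 7.0e-04), and its differences in 16-6, line 32 and T2 were 0.40 ± 0.09, 0.53 ± 0.09 and 0.30 ± 0.11 (adjusted p = 0.014, 0.0050 and 0.065). Gbx2 overlaps D130058E05Rik on the other strand.

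Junb, an AP-1 subunit gene (chr8:87500808-87502647), reached 97.3 FPKM in S8 and 76.7 in T2. It stood at 46.8 and 54.96 in R1, 60.6 and 58.7 in 16-6 and 42.2 and 48.2 in line 32, where the libraries overlapped with R1. Its difference from R1 in S8, 0.93 ± 0.12, was below 2-fold (adjusted p = 0.0018), though without the second R1 library it was 1.04 and called. S8 exceeded line 32 by 1.09 ± 0.12 (adjusted p = 0.0014). No neighbouring pair of lines in the order of Junb means passed the test (adjusted p from 0.058 to 0.20). The R1 libraries had an SD of 5.80 around a mean of 50.9 (n = 2).

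Bcl3, whose product is an IκB-family partner of NF-κB subunits (chr7:20393811-20408104), formed a low and a high level. It was 21.0 and 20.1 FPKM in R1, 21.8 and 20.5 in 16-6 and 21.8 in T2, against 34.4 and 35.8 in line 32 and 36.3 in S8. The levels did not overlap. The differences from R1 were 0.74 ± 0.05 in line 32 and 0.79 ± 0.06 in S8 (adjusted p = 3.1e-04 and 3.7e-04), neither of them 2-fold. Antisense transcripts, Gm16174 and Gm16175, overlap Bcl3.

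**Figure D2:**
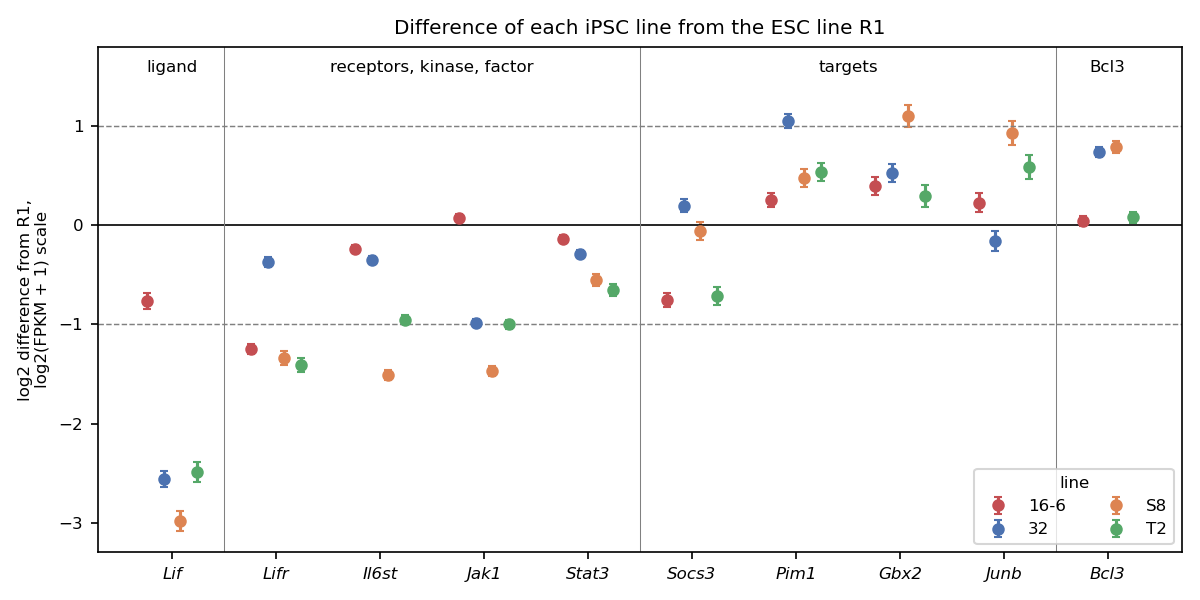
Log2 difference of each iPSC line from R1 on the log2(FPKM + 1) scale (vertical axis) for the 10 genes (horizontal axis), with bars of 1 SE from limma and dashed lines at 2-fold. Lif reaches -2.98 in S8, the receptor side lies at or below 0 apart from Jak1 in 16-6 at 0.07, and Gbx2 in S8 at 1.10 and Pim1 in line 32 at 1.05 are the points above the upper dashed line.

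By comparison with R1, 1 of the 10 genes was called in 16-6 (Lifr, lower), against 7.11% of all genes tested, 3.58% higher and 3.53% lower. In line 32, 2 were called (Pim1 higher, Lif lower), against 9.77%, 1.54% higher and 8.23% lower. In S8, 5 were called (Gbx2 higher and Lif, Lifr, Il6st and Jak1 lower), against 16.7%, 6.93% higher and 9.74% lower. In T2, 2 were called (Lif and Lifr, lower), against 10.5%, 3.95% higher and 6.54% lower. Between 16-6 and line 32, which both come from mesoderm, Lif and Jak1 were called higher in 16-6, against 10.3%, 9.22% higher and 1.09% lower. The counts in 16-6, line 32 and T2 are close to the background or rest on 1 or 2 genes. The comparisons with R1 share the same R1 libraries and are not independent. S8 and T2 had 1 library each and were assumed to vary as the replicated lines do, so their differences have no replicate check, and library and line cannot be told apart.

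Called from the deposited confidence limits instead, the counts were also 1, 2, 5, 2 and 2, against 6.69%, 9.29%, 16.0%, 10.1% and 9.92% of all genes. This required limits apart and the same minimum of 1 on the log2(FPKM + 1) scale, so both ways of calling share that minimum. Jak1 in line 32 and T2, slightly past 2-fold in FPKM, was therefore not called here either. With upper quartile scaling, the T2 count was 4. With no fold minimum the 5 counts were 7, 8, 9, 8 and 8, against 55.6%, 61.5%, 66.7%, 57.9% and 60.4% of all genes. In a subset of genes the replicate libraries differed by little more than counting noise, with a variance over counting noise of 1.08 in 16-6, 1.23 in R1 and 1.27 in line 32. The subset was 4921, 5308 and 4968 genes in these lines, with whole-number implied fragments, at least 20 in the pair and fewer than 2000 in each library. Genes outside it were not examined in this way. The study's methods call the replicates biological, but neither they nor the labels say that these came from separate cultures, so p-values measure only the spread between these libraries, which may be technical.

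The receptors, kinase and factor (Lifr, Il6st, Jak1, Stat3) and the targets (Socs3, Pim1, Gbx2, Junb) were then set side by side. The median difference from R1 of the receptor side was -0.19 in 16-6, -0.36 in line 32, -1.41 in S8 and -0.97 in T2. That of the targets was 0.25, 0.36, 0.70 and 0.42. It depended on the genes chosen, as the 10 tested target genes of the wider list below had medians of -0.17, 0.22, 0.29 and 0.1. The median over all genes tested lay between -0.03 and -0.02. Of the receptor side, 1, 0, 3 and 1 of 4 genes were called lower and none was called higher, against 3.53%, 8.23%, 9.74% and 6.54% of all genes called lower. Of the targets, 0, 1, 1 and 0 of 4 were called higher, against 3.58%, 1.54%, 6.93% and 3.95% of all genes, and none was called lower, although Socs3 differed by -0.75 in 16-6 and -0.71 in T2.

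The mean log2(FPKM + 1) of the targets minus that of the receptor side was -0.07 and -0.03 in R1, 0.42 and 0.34 in 16-6, 0.90 and 0.82 in line 32, 1.78 in S8 and 1.13 in T2. The R1 libraries had the lowest values and S8 the highest. The receptor side covered 3.99 to 5.22 and the targets 5.14 to 5.78. These are descriptions over 4 genes each, with no test, and the targets are also regulated by other pathways.

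**Figure D3:**
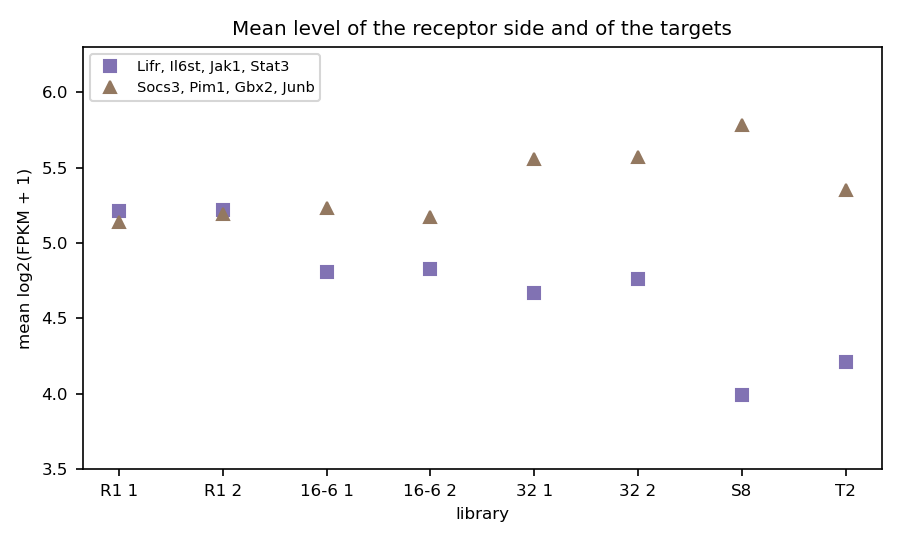
Mean log2(FPKM + 1) (vertical axis, starting at 3.5) of Lifr, Il6st, Jak1 and Stat3 (squares) and of Socs3, Pim1, Gbx2 and Junb (triangles) in each library (horizontal axis). The means nearly coincide in R1 and are farthest apart in S8, where they are 3.99 and 5.78.

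The wider pathway list held 45 genes, of which 43 were tested and Osm and Pramel7 were below 1 FPKM in every library. Outside the 10 genes, 33 were tested. Of these, 1 was called higher and 4 lower in 16-6 against R1, 0 and 7 in line 32, 2 and 9 in S8, and 2 and 8 in T2. Over all genes tested, the shares higher and lower were 3.58% and 3.53% in 16-6, 1.54% and 8.23% in line 32, 6.93% and 9.74% in S8, and 3.95% and 6.54% in T2, so the higher calls are near the background. The median differences of the 33 genes were -0.37, -0.25, -0.50 and -0.59. Between 16-6 and line 32, 6 were called higher and 2 lower in 16-6, against 9.22% and 1.09% of all genes tested.

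Several ligand genes of the IL-6 family were lower in line 32, S8 and T2 than in R1. In each of these lines 4 of 6 tested ligand genes were called lower, namely Lif, Il6, Il11 and Clcf1 (cardiotrophin-like cytokine). Of all genes tested, 8.23% were called lower in line 32, 9.74% in S8 and 6.54% in T2. In 16-6 only Il6 was called lower, against 3.53%. Lif is also 1 of the 10 genes described above. Il6, the interleukin-6 gene, was at 20.5 and 18.2 FPKM in R1, 5.47 and 4.91 in 16-6, 0.123 and 1.11 in line 32, 0.866 in S8 and 1.30 in T2. The other tested ligands were not called, with differences of -0.33, 0.52 and 0.07 for Ctf1 and 0.58, 0.02 and 0.80 for Cntf in line 32, S8 and T2. Il11 was at 15.5 and 18.0 in R1, 11.1 and 11.04 in 16-6 and at most 1.496 in the other libraries. The ligand FPKM, summed over the list, came to 75.4 and 78.2 in R1, 41.6 in both 16-6 libraries, 11.1 and 12.8 in line 32, 17.1 in S8 and 15.9 in T2.

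Among the 8 fibroblast markers, some followed the order of these ligands and some did not. Their summed level was lowest in line 32, where 6 of 8 reached 1 FPKM, and lower in S8 and T2 than in R1. It was 1720.1 and 1733.8 in 16-6, above R1, where Lif, Il6 and the ligand sum were lower than in R1. Single markers differed in 16-6, where more were called higher than lower against R1. Col1a1, Col1a2, Fbln2, Postn and Thy1 were called higher, with differences of 1.71, 1.39, 2.07, 2.28 and 1.5. Col3a1, at -0.2, was not called. Dcn and Lum, at -2.63 and -2.72, were called lower. Dcn was at 217 and 204 FPKM in R1, 32.9 and 33.3 in 16-6, 0.605 and 0.890 in line 32, 11.08 in S8 and 11.02 in T2. Col1a1 had means of 177 in R1, 583 in 16-6 and 28.4 in line 32, and was at 167 in S8 and 243 in T2. The 6 primitive endoderm markers summed to 23.5 and 26.3 in R1, 22.3 in both 16-6 libraries and 4.4 and 4.7 in line 32. Their sum was 7.4 in S8 and 9.9 in T2, which gives the order of high and low lines of Osmr. Only 1 to 3 of the 6 reached 1 FPKM in a library. Dab2 and Pdgfra, at means of 12.7 and 9.55, made up most of the sum in R1. Gata6 was at 1.28 in R1 and 0.401 in line 32, Gata4 at 0.851 and 0.966 and Sox17 at 0.184 and 0.191. Foxa2 went the other way, at 0.323 in R1, 0.831 in line 32 and 1.32 in T2. Osmr, the oncostatin M receptor chain, was at 15.8 and 16.6 FPKM in R1, 14.9 and 15.6 in 16-6, 0.552 and 0.586 in line 32, 1.92 in S8 and 4.16 in T2. The part of feeder, other fibroblast or primitive endoderm RNA in the levels of ligands, receptors and kinases was not tested.

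**Figure D4:**
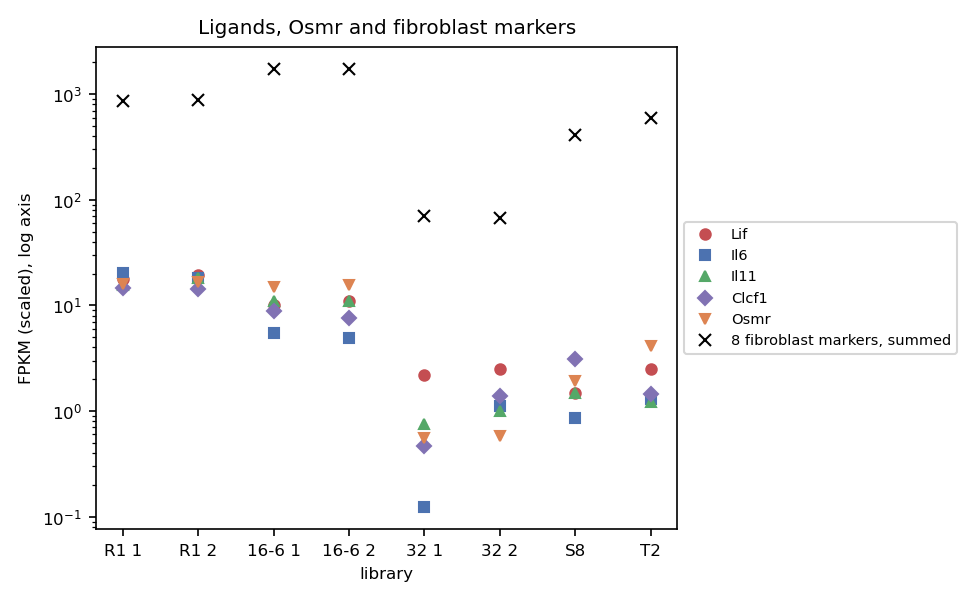
FPKM on a log axis of the ligand genes Lif, Il6, Il11 and Clcf1, of Osmr and of the sum of 8 fibroblast markers (crosses) in each library. The ligands are at 14.4 FPKM or more in R1 and at 3.13 or less in line 32, S8 and T2, and the marker sum is highest in 16-6 and lowest in line 32.

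Among the other receptors, Cntfr, the ciliary neurotrophic factor receptor, rose by 1.71 in 16-6, 1.72 in S8 and 1.64 in T2. It was at 2.20 and 2.54 FPKM in R1, 10.1 and 9.88 in 16-6, 10.1 in S8, 9.51 in T2 and 4.35 and 5.04 in line 32. The second R1 value has wide limits, 0.794 to 4.293, equal to 8 implied fragments, and the 16-6 values 49 and 520. The 4 of 6 tested receptor genes called lower in S8 were Lifr, Il6st, Il6ra and Osmr, against 9.74% of all genes tested. Il6ra was at only 0.251 FPKM in S8, on 13 implied fragments. Il11ra1, the interleukin-11 receptor chain, fell by 1.35 in line 32, to 0.482 and 0.696 FPKM on 7 and 10 implied fragments.

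Other kinase genes differed by line. Jak2 was at 9.03 and 8.86 FPKM in R1, 11.3 and 12.7 in 16-6, 3.86 and 3.65 in line 32, 1.73 in S8 and 4.02 in T2, so its higher levels were in the same 2 lines as those of Jak1. Jak3 was lowest in 16-6, at 6.95 and 6.14, and highest in line 32, at 21.5 and 22.4.

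Of the 11 inhibitor genes, Ptpn6, which encodes a phosphatase, fell by 1.44 in 16-6, and Socs1 rose by 1.18 in both S8 and T2. No inhibitor was called in line 32 against R1, where 9.77% of all genes tested were. The shares of all genes were 3.53% lower in 16-6, 6.93% higher in S8 and 3.95% higher in T2. Socs1 was at 12.0 FPKM in both S8 and T2 and between 4.32 and 5.16 in the other libraries.

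Other genes known to respond to LIF in mouse ESCs went in different directions in S8 and T2. Tcfcp2l1, a transcription factor that sustains self-renewal, was at 56.3 and 54.6 FPKM in R1, 42.0 and 42.5 in 16-6, 95.8 and 96.4 in line 32, 8.21 in S8 and 14.3 in T2. It fell by 2.61 in S8 and 1.88 in T2. Klf5 fell by 1.0004, just past the fold minimum, in S8 and by 1.15 in T2. Klf4 fell by 1.25 in T2 and differed by -0.81 in S8, below the fold minimum. Pim3, which encodes a kinase related to Pim1, differed by 0.97 in S8 and 0.43 in T2, below the fold minimum, and Myc by 0.10 and 0.11. In 16-6, Klf4, Klf5, Tcfcp2l1 and Pim3 differed from R1 by -0.99, -0.77, -0.38 and -0.37 and Myc by 0.09, none of them called. In the list's 10 tested target genes, 1 was higher and 2 lower in S8, and 0 and 3 in T2, with medians of 0.29 and 0.10. Over all genes tested the shares were 6.93% higher and 9.74% lower in S8 and 3.95% and 6.54% in T2. Tcfcp2l1 and Klf5 were lowest in S8 and T2, while Pim1, Gbx2 and Junb were above R1 in both.

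The genes whose levels across the 8 libraries were most like those of 3 pathway genes were found by Pearson correlation of log2(FPKM + 1) among 5767 genes. Lifr was most like Trps1 (r = 0.994), Tmem64 (0.993) and Ceacam1 (0.989). Stat3 was most like Pde8a (0.992), Cpt1a (0.99) and Rbl2 (0.985). Socs3 was most like Fam25c (0.989), Rnu12 (0.985) and Rad9b (0.983). Tmem64 was at 54.3 and 54.9 FPKM in R1, 41.8 and 41.9 in line 32 and 23.5 to 27.9 in the other libraries, the same order of high and low lines as Lifr. The points are 8 libraries of 5 lines, with replicates of 1 line nearly equal, and the likeness is a description.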

How the data were processed

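The authors mapped paired reads to UCSC genes of mm9 with TopHat2 (2.0.4) and kept unique alignments. The submitters' processing notes name Cufflinks 2.0.0, and the paper's methods a later release. The deposited values are FPKM with lower and upper confidence limits, from 1 file per library. Options of Cufflinks, and whether counting used strand, are not given in the sources used here. Per the study's supplement, the libraries of S8 and T2 had several times the reads of the others and a smaller share of uniquely mapped reads, a split that coincides with these lines.

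All FPKM were divided by 12725.7, which set the median library total to 1000000. Implied fragments, which equal a fragment number only where counting is the sole source of the limits, are (2 × FPKM) squared over the squared distance between upper limit and FPKM. The 13693 genes that reached an FPKM of 1 in any library were fitted as log2(FPKM + 1) by limma 3.58.1 (two-sided, lmFit then eBayes with its trend option) in R 4.3.3, with all 8 libraries in 5 groups, and p-values were adjusted by Benjamini-Hochberg over all genes tested. Simulated data were used to test the fit. The members and lists were chosen with earlier results of these data known. The named genes are the 10 members, called genes of the wider list (not all are reported here) and, for Lifr, Stat3 and Socs3, the 3 genes of highest correlation with a range of at least 1. Tfcp2l1 is listed as Tcfcp2l1. The alternatives were a pseudocount of 0.1, filters on low values, quantile and upper quartile scaling, no trend, no fold minimum, calls from the confidence limits, leaving out each library, a replicate block, fits without S8 and T2, and, chosen after seeing the data, the 16-6 libraries averaged to 1 sample. Same-numbered libraries did not deviate together (correlations of -0.097, 0.001 and 0.028), so the replicate numbers were not taken as pairs. Overlapping genes and sequence came from the reference genome of the same build.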

Additional observations from a re-analysis of the deposited data

Results flagged for a closer look

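Jak1 was above R1 in both 16-6 libraries and below it in every library of line 32, S8 and T2. The difference between 16-6 and each of these lines was 1.05 for line 32 (adjusted p = 6.5e-05), 1.54 for S8 (adjusted p = 5.8e-05) and 1.06 for T2 (adjusted p = 3.0e-04) by limma on the log2(FPKM + 1) scale. The 16-6 libraries were both higher than all 4 libraries of the other iPSC lines, but their own difference from R1 did not pass the test.

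Socs3 was above R1 in both libraries of line 32 and below it in 16-6, S8 and T2. The difference of line 32 was 0.94 from 16-6 (adjusted p = 3.3e-04), 0.26 from S8 (adjusted p = 0.047) and 0.90 from T2 (adjusted p = 0.0014). The libraries of line 32 were higher in each case, and the differences of line 32 and S8 from R1 did not pass the test.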

How the results depend on the processing

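Of 600 recomputed member differences, 586 kept their direction and side of the thresholds, 3 fell below the fold minimum (all Pim1 in line 32) and 10 passed it. The other 1 turned its sign, Bcl3 in 16-6 against R1, to -0.0021 without the first 16-6 library (0.08 without the second). Many of the 600 could change only in their adjusted p. The filters, the trend option and leaving out a library of a line outside the comparison do not alter the difference itself. Of 108 recomputed counts of members, 100 stayed within 1.5 times. With no fold minimum, 7 members were called in 16-6, 8 in line 32, 9 in S8 and 8 in T2 against R1, and 8 between 16-6 and line 32, where 55.6% to 66.7% of all genes were called. In line 32 against R1, 1 was called after quantile normalization, and in T2 against R1 4 with upper quartile scaling. Leaving out each library gave 6 to 8 members among the lines, 1 in 16-6, 1 to 3 in line 32 (1 without the second R1 library), 5 to 6 in S8, 2 in T2, 2 to 3 between 16-6 and line 32, and 15 to 19 neighbouring pairs. With the replicate block, fitted without S8 and T2, the counts were 1, 2 and 2 for 16-6 against R1, line 32 against R1 and 16-6 against line 32, the same as without it. The cause of these moves was not tested. Over all genes, a pseudocount of 0.1 gave 1690 calls in 16-6, 2258 in line 32 and 2198 in T2 in place of 974, 1338 and 1437. Requiring an FPKM of 1 in every library left 565, 740 and 940 calls, and 859 instead of 1412 between 16-6 and line 32. Of the wider list it left 4 in place of 9 calls in line 32 and 5 in place of 10 between 16-6 and line 32. Fewer genes were tested under this filter, and its part in these counts was not tested. With 1 library, S8 and T2 allow no replicate check.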
